A study of Mus musculus with 22 samples.

Results

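The kidney cortex of 12-month-old mice was compared between 3 libraries of mice with the gene for carnitine acetyltransferase deleted in the proximal tubule, per the labels, and 3 libraries of floxed controls, 6 of the 22 libraries of the series. They were chosen by the age label and by the letters LFD in the sample titles, which the labels do not spell out. All were male C57BL/6J mice. The group called Pt-CrAT carried a Cre recombinase under the Ggt promoter, which is active in proximal tubular cells, while the group called fl/fl carried the floxed Crat allele without Cre. Libraries keep the names in their titles. The fl/fl libraries were Wt12MLFD326, Wt12MLFD327 and Wt12MLFD368, and the Pt-CrAT libraries were CrAT12MLFD328, CrAT12MLFD337 and CrAT12MLFD345. At 24 months, 5 fl/fl and 5 Pt-CrAT libraries of the same strain, sex and Cre, with chow in their titles, served for 1 test of a difference between ages. The series also holds 3 fl/fl and 3 Pt-CrAT libraries labelled 15 months, with chow in their titles. These were in the fitted model but were not compared. The labels do not state that each library came from a separate animal, so p-values measure spread between libraries, which may be partly technical. In the main edgeR fit that spread was estimated within the groups of all 22 libraries, not from these 6 alone.

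Crat encodes the mitochondrial enzyme that passes acetyl groups between coenzyme A and carnitine, so that surplus acetyl units can leave the matrix as acetylcarnitine. Proximal tubular cells reclaim most of what the glomerulus filters and draw their energy mainly from fatty acids, which are broken down to acetyl-CoA in mitochondria. Their work depends on apical transporters, on endocytosis through megalin and on a dense set of respiratory chain, ribosome and proteasome genes.

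Total counts were 12175804 to 16302546 in 5 of the 6 libraries and 53157575 in CrAT12MLFD345. Mitochondrial transcripts took 4.88% to 6.58% of counts. Markers of the labelled tissue were abundant: the phosphate transporter Slc34a1 stood at 6068 to 10404 CPM (counts per unit of sequencing depth, the library total scaled by the trimmed mean of M values, TMM), and the thick ascending limb protein Umod at 702 to 913 CPM. Crat itself stood at 54.0, 84.6 and 98.0 CPM in the fl/fl libraries (in the order given above) and at 42.4, 81.1 and 64.2 CPM in the Pt-CrAT libraries. The groups overlapped, with CrAT12MLFD337 close to Wt12MLFD327. The log2 fold change of Crat was -0.33 (SE 0.27, edgeR adjusted p = 0.41), and the exact two-sided permutation test gave p = 0.4, where 3 against 3 cannot go below 0.1. The tags lie near the 3′ end, and the labels do not say which part of the gene was removed. At 24 months the same tags put Crat at 74.7 ± 24.4 CPM in the controls against 36.2 ± 4.41 CPM in the Pt-CrAT group (SD, n = 5 each). Because the tissue was bulk cortex, fewer cells of a type and less RNA per cell cannot be told apart in any value below.

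The edgeR quasi-likelihood test called 2464 of 15064 genes (16.4%) at an adjusted p under 0.05, of which 1267 (8.41%) were higher and 1197 (7.95%) lower in Pt-CrAT. These calls rested unevenly on the libraries. Only 47 genes (0.312%) were also called in all 6 fits that each omitted 1 library, 46 of them higher and 1 lower in Pt-CrAT. This count was largely set by the fit without CrAT12MLFD328, which called 52 genes higher and 1 lower. At an unadjusted p under 0.05 by edgeR, that fit had 1778 genes higher and 1577 lower, so the directions were less uneven there. The 47 are described first, because no single library decided their call.

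The 46 that rose fell into sets by the Pt-CrAT library in which they were highest, a grouping made after their values were seen and therefore not tested. CrAT12MLFD345 was highest for 14 of them, all near the floor in fl/fl, with fl/fl means of 0.0223 to 2.47 CPM. CrAT12MLFD328 was highest for 29, all well expressed in fl/fl, with fl/fl means of at least 9.22 CPM and log2 fold changes of 0.73 to 1.52. CrAT12MLFD337 was highest for the other 3, namely C3, Cnot3 and Ddit3. The order CrAT12MLFD328, CrAT12MLFD337, CrAT12MLFD345 from low to high held for 12 of the 46, and the reverse order for 27. Among all 1267 genes called higher these orders held for 47 and 817.

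**Figure D1:**
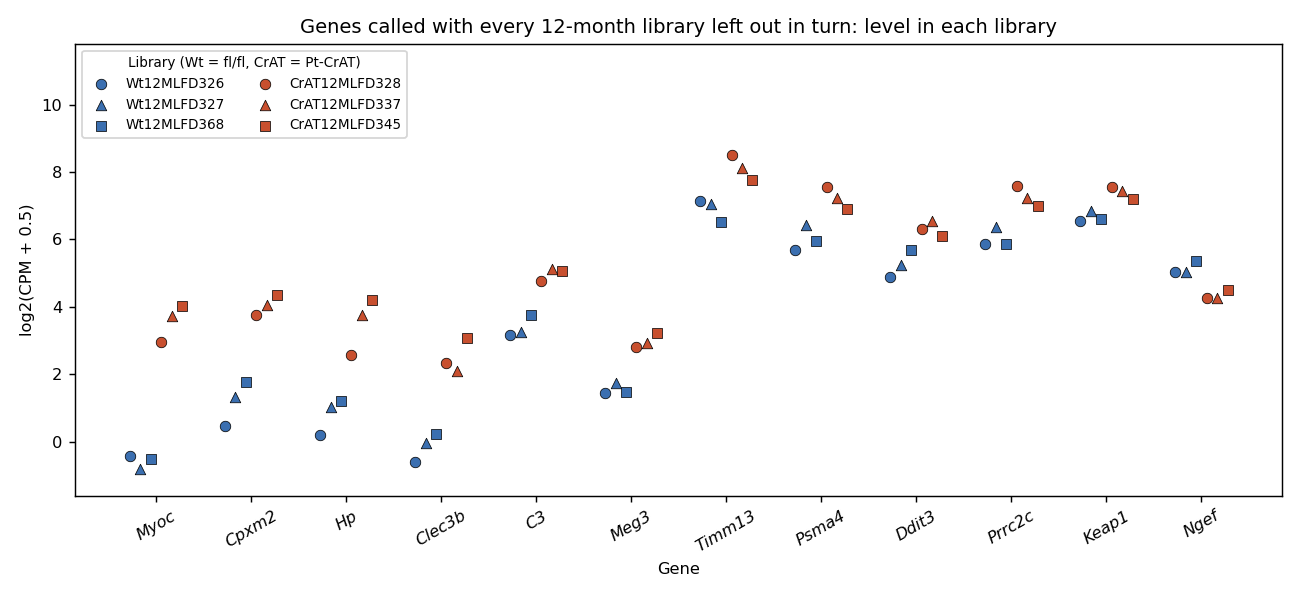
Level of 12 of the 47 genes in each of the 6 libraries, as log2(CPM + 0.5) on the vertical axis; blue points are fl/fl and red points Pt-CrAT libraries, with 1 symbol per library. Myoc, Cpxm2, Hp and Meg3 climb from CrAT12MLFD328 to CrAT12MLFD345, Timm13, Psma4, Prrc2c and Keap1 descend in that order, and Ngef lies lower in all 3 Pt-CrAT libraries.

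Of the 14 low-expressed genes, 5 are on the list of pericyte, fibroblast and mesothelial markers. All gene lists were chosen with earlier results of these data known, so membership and shares called are descriptive only. Myoc, which encodes the secreted glycoprotein myocilin (ENSMUSG00000026697; GRCm38 chromosome 1, 162639155 to 162649693), stood at 0.24, 0.0668 and 0.204 CPM in fl/fl and at 7.30, 12.7 and 15.7 CPM in Pt-CrAT. The fl/fl values came from 7 reads in all and the Pt-CrAT values from 994. Its log2 fold change was 6.11 (SE 0.95, adjusted p = 0.00363), and it was the 1 gene that passed when only the 6 libraries were fitted (adjusted p = 0.0104).

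Cpxm2, a carboxypeptidase-like protein of the extracellular space, stood at 0.879, 2.004 and 2.92 CPM in fl/fl and at 13.0, 16.2 and 19.9 CPM in Pt-CrAT (log2 fold change 3.07, SE 0.52, adjusted p = 0.00489). The plasminogen-binding protein gene Clec3b stood at 0.160, 0.468 and 0.679 CPM against 4.57, 3.78 and 7.94 CPM (3.61, SE 0.65, adjusted p = 0.00489). In both genes every Pt-CrAT library lay above every fl/fl library, and the smallest Pt-CrAT value was more than any fl/fl value by several-fold. The matrix protein gene Dpt rose by 2.97 (SE 0.54) from 0.134 to 0.320 CPM in fl/fl to 1.37 to 2.27 CPM. The imprinted long noncoding RNA Meg3 rose by 1.61 (SE 0.29), from 2.24 to 2.87 CPM in fl/fl to 6.57 to 8.87 CPM.

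Of the other 9 genes of this set, Hp alone is on a list, that of acute-phase genes. Apod, a lipid-carrying lipocalin, stood at 0.320, 0.534 and 0.475 CPM in fl/fl and at 1.83, 3.12 and 4.70 CPM in Pt-CrAT (log2 fold change 2.87, SE 0.56, adjusted p = 0.00633). Timp4, a metalloproteinase inhibitor, rose by 3.94 (SE 0.72) and the proteolipid gene Nnat by 3.61 (SE 0.74), each from 7 fl/fl reads. Another 3 genes rested on almost no fl/fl reads, so no fold is given. The resistin-like gene Retnla had 2 fl/fl and 291 Pt-CrAT reads, the macrophage scavenger receptor Cd163 had 2 and 128, and the cartilage matrix gene Cilp had 1 and 140. Of these Pt-CrAT reads, the deeply sequenced CrAT12MLFD345 supplied 236, 105 and 126.

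Markers of fat cells moved alongside. Adipoq, the adipokine adiponectin, stood at 0.320, 0.735 and 0.407 CPM in fl/fl and at 5.75, 14.1 and 28.0 CPM in Pt-CrAT, the same order of Pt-CrAT libraries as Myoc, Cpxm2 and Apod. Of 18 adipocyte genes tested, 8 rose and 0 fell, with a median log2 fold change of 0.94, against 8.41% higher and a median of 0.0016 over all genes tested. At an unadjusted p under 0.05, 10 were higher and 1 lower, and DESeq2 called 8 higher and 0 lower. Without CrAT12MLFD328, 3 were called, and without Wt12MLFD326 edgeR called 0, with 9 higher and 0 lower at an unadjusted p under 0.05. The summed level of the list ranged over 1457 to 1586 CPM in the controls and 1498 to 2117 CPM in Pt-CrAT. This sum included Car3, which ranged over 63.5 to 246 CPM in the controls and 294 to 649 CPM in Pt-CrAT. It also included Pck1, which is on the list of proximal tubule markers too, so the sum does not measure fat cells alone. Of the defining markers, Retn was at 0 in Wt12MLFD326 but at 0.136 to 0.468 CPM in Wt12MLFD327 and Wt12MLFD368. Adipoq missed the threshold without Wt12MLFD326 (adjusted p = 0.0611), and Car3 with any library but Wt12MLFD368 left out (0.0664 to 0.24). The part of fat cells in the rise of the low-expressed genes was not tested.

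The stromal markers did not move as a block. Of 25 pericyte, fibroblast and mesothelial genes, 8 rose and 3 fell (44.0% called, against 16.4% over all genes tested), with a median of 0.22. This list was chosen with earlier results of these data known, so its share is not independent of these values. The 5 that kept their call in all 6 fits were Myoc, Cpxm2, Clec3b, Dpt and Meg3. The receptors Pdgfrb (-1.15, SE 0.34) and Pdgfra (-0.94, SE 0.25) and the collagen gene Col14a1 (-0.84, SE 0.21) fell; these 3 were named after their values were seen. Pdgfrb stood at 28.3, 14.4 and 14.6 CPM in fl/fl and at 7.21, 7.56 and 10.6 CPM in Pt-CrAT. No gene of these 3 passed without Wt12MLFD326 (adjusted p = 0.108 to 0.229) or without CrAT12MLFD328 (0.113 to 0.146), and neither receptor without CrAT12MLFD337 (0.0951 and 0.118). The common fibroblast gene Dcn, at 18.6 to 31.2 CPM in the controls against 24.9 to 35.8 CPM in Pt-CrAT, did not pass (log2 fold change 0.20, SE 0.24, adjusted p = 0.599). Summed stromal levels overlapped, at 727 to 870 CPM in the controls against 714 to 913 CPM in Pt-CrAT.

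Among acute-phase and complement genes, C3 and Hp rose and kept their call with each library left out. C3 is the component on which all routes of complement activation converge (ENSMUSG00000024164; GRCm38 chromosome 17, 57203970 to 57228136, minus strand). It stood at 8.55, 9.02 and 13.0 CPM in fl/fl and at 26.8, 34.3 and 33.1 CPM in Pt-CrAT, with a log2 fold change of 1.62 (SE 0.25, adjusted p = 0.00278). The lowest Pt-CrAT library held more than the highest fl/fl library, and the spread within Pt-CrAT was small beside the gap. Hp, which binds free haemoglobin, stood at 0.640, 1.54 and 1.83 CPM against 5.48, 13.1 and 17.8 CPM (3.18, SE 0.50, adjusted p = 0.00363). Hp thus followed the library order of Adipoq, whereas C3 was highest in CrAT12MLFD337.

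Of 20 genes of this list, 5 rose and 0 fell (25.0% called, against 16.4% over all genes tested), with a median of 0.14. DESeq2 called 5 higher and 2 lower, and by edgeR 5 were higher and 4 lower at an unadjusted p under 0.05. The leucine-rich glycoprotein Lrg1 rose by 0.83 (SE 0.23) and C4b, whose tags may be split with its near-identical copy C4a, by 0.74 (SE 0.20). Lrg1 lost its call without Wt12MLFD326 (adjusted p = 0.112) and both lost theirs without CrAT12MLFD328 (0.125 for Lrg1 and 0.0657 for C4b) and without CrAT12MLFD337 (0.0642 and 0.0893), and after the GC correction described below (0.0744 and 0.0684). Markers of macrophages, which also make complement, gave 0 calls of 29 in edgeR and in DESeq2, with 3 higher and 1 lower at an unadjusted p under 0.05 and 2 higher in limma voom with sample weights. Their summed level was 550 CPM in Wt12MLFD326 and 1027 to 1502 CPM in the other 5 libraries.

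The promoter of C3 is shown because C3 was called in each of the 6 fits and its regulation in the acute phase is classically tied to C/EBP factors. The RefSeq window on GRCm38.p6, chr17:57228137-57228386 on the minus strand, holds the 250 bases before the start, with capitals at each match to the C/EBP-type pattern TTNNGNAA on either strand.
C3: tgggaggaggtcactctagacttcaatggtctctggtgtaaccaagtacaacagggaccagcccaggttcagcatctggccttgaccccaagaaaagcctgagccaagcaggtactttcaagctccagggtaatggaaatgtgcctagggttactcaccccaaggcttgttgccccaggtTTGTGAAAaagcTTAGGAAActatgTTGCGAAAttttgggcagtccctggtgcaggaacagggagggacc
Matches begin 70, 58 and 45 bases before the start, as TTGTGAAA, TTAGGAAA and TTGCGAAA. A match occurs in 36.8% of 32851 mouse promoter windows, and the STAT-type pattern TTCNNNGAA had 0 matches here and at least 1 in 7.02% of windows. A match is a run of letters and no evidence of binding.

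The 29 genes highest in CrAT12MLFD328 have varied functions, and 4 of them, Timm13, Psma4, Keap1 and Eno1, belong to the gene lists used here. Timm13, a small chaperone of the mitochondrial intermembrane space, stood at 140, 133 and 91.5 CPM in fl/fl and at 366, 276 and 217 CPM in Pt-CrAT (log2 fold change 1.24, SE 0.18, adjusted p = 0.00236). Psma4, an alpha subunit of the proteasome core, stood at 50.6, 84.9 and 61.0 CPM against 189, 150 and 118 CPM (1.21, SE 0.19, adjusted p = 0.00363). Both descended from CrAT12MLFD328 to CrAT12MLFD345, and in both the lowest Pt-CrAT value exceeded the highest fl/fl value.

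Keap1, the adaptor that targets the antioxidant factor Nrf2 for destruction, stood at 93.5, 115 and 96.7 CPM in fl/fl and at 189, 172 and 146.3 CPM in Pt-CrAT (0.73, SE 0.13). Tfeb, a transcription factor of lysosomal genes, was nearly the same in the 3 fl/fl libraries, at 56.8, 56.5 and 57.4 CPM, and stood at 111, 104 and 88.3 CPM in Pt-CrAT (0.83, SE 0.14). Ddit3, the stress-induced transcription factor CHOP, stood at 29.2, 37.4 and 50.8 CPM against 78.3, 93.0 and 67.7 CPM (1.02, SE 0.20, adjusted p = 0.00633). The lowest Pt-CrAT library lay above the highest fl/fl library for each of the 3 genes. Tfeb, like the genes in the next sentences, was named after its values were seen.

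Several chromatin and RNA-processing genes rose by similar amounts. The RNA-binding protein gene Prrc2c stood at 58.1, 81.8 and 58.4 CPM in fl/fl and at 190, 149 and 128 CPM in Pt-CrAT (1.24, SE 0.17, adjusted p = 0.00157). The cohesin loader Nipbl rose by 0.98 (SE 0.17), the chromatin regulators Ankrd11 by 0.99 (SE 0.16) and Arid4a by 1.07 (SE 0.19), the transcriptional repressor Rest by 0.84 (SE 0.15) and the splicing factor Srsf11 by 0.79 (SE 0.14). Cep290, which organises the base of the cilium, rose by 1.22 (SE 0.17), from 11.03 to 17.0 CPM in fl/fl to 24.4 to 36.5 CPM. The myristoyltransferase Nmt1 rose by 1.07 (SE 0.19) and the mannose-activating enzyme Gmppb by 1.06 (SE 0.17). The glycolytic gene Eno1 also rose (1.12, SE 0.20), with the limit that near-identical Eno1 copies could share its tags.

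The 1 gene of the 47 that fell was Ngef, a guanine nucleotide exchange factor for small GTPases. It stood at 32.6, 32.6 and 40.8 CPM in fl/fl and at 18.8, 18.8 and 22.2 CPM in Pt-CrAT (log2 fold change -0.82, SE 0.13, adjusted p = 0.00363). Its spread within each group was small, and neither Wt12MLFD326 nor CrAT12MLFD328 stood apart in it.

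The remaining calls were carried by a few libraries. Among the 1197 genes called lower, Wt12MLFD326 was the highest of the 6 libraries for 1083 (90.5%), Wt12MLFD327 for 37 and Wt12MLFD368 for 77. Among the 1267 called higher, CrAT12MLFD328 was the highest for 888 (70.1%), CrAT12MLFD337 for 317 and CrAT12MLFD345 for 62. In those genes Wt12MLFD326 was the lowest for 907. A call already fixes which group is higher, so only the split within a group can be read. The same shares over all genes tested were not computed. The median deviation of the genes called lower from their 6-library mean, on the log2(CPM + 0.5) scale, was 0.90 in Wt12MLFD326 and 0.16 and 0.19 in the other fl/fl libraries, against -0.61, -0.52 and -0.09 in Pt-CrAT. Values of the groups did not overlap for 1173 of the genes called higher and 929 of those called lower, where 30.1% of all genes tested had groups that did not overlap in either direction. Fitting without Wt12MLFD326 left 346 higher and 62 lower (2.65% of genes tested), and without CrAT12MLFD328 left 52 higher and 1 lower (0.344%). Without both, 18 higher and 1 lower remained called, 15 of them among the 47, and a fit of the 6 libraries alone called 1 gene, with 3438 at an unadjusted p under 0.05.

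**Figure D2:**
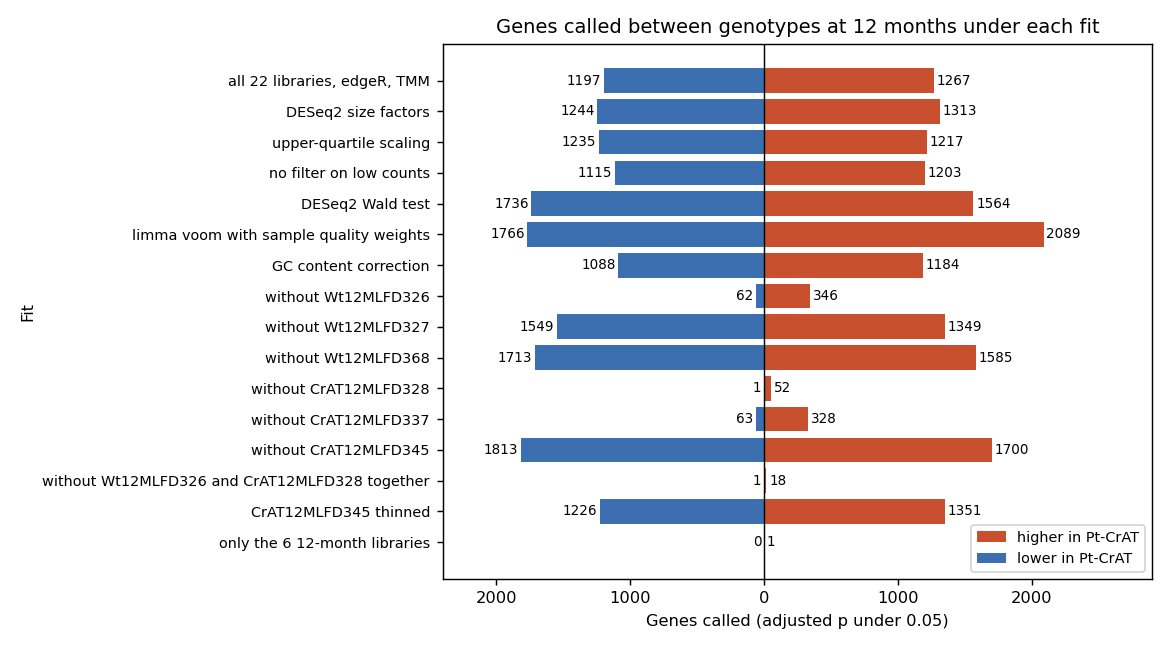
Number of genes called higher (right, red) and lower (left, blue) in Pt-CrAT under each fit, with the count printed at each bar. The calls fall from 1267 and 1197 with all libraries to 346 and 62 without Wt12MLFD326 and to 52 and 1 without CrAT12MLFD328.

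Cytosolic ribosomal protein genes were mostly called higher where they were called. Of 78 tested, 16 rose and 1 fell, with a median of 0.20, against 8.41% higher and 7.95% lower over all genes tested. Rps15 stood at 378, 594 and 495 CPM in fl/fl and at 1096, 961 and 779 CPM in Pt-CrAT (0.95, SE 0.18, adjusted p = 0.00517), and Rpl36 at 331, 488 and 389 CPM against 843, 861 and 600 CPM (0.93, SE 0.19). In these and in Rps14 (0.93, SE 0.18) all Pt-CrAT libraries lay above all fl/fl libraries. Without Wt12MLFD326 5 rose and 0 fell, with 18 higher and 6 lower at an unadjusted p under 0.05. Without CrAT12MLFD328 edgeR called 0, with 19 higher and 2 lower at an unadjusted p under 0.05. With 1 library left out, the 3 genes named missed the threshold only there (adjusted p = 0.0505 to 0.0585). They also missed it in the fit of the 6 libraries alone (0.158 for each) and without Wt12MLFD326 and CrAT12MLFD328 together (0.16 to 0.185). Tags of these genes can be shared with their many pseudogene copies.

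Respiratory chain and mitochondrial ribosome genes went both ways. Of 37 complex I genes, 9 rose and 4 fell, with a median of 0.23, and of 38 genes of complexes III and IV and ATP synthase, 6 rose and 2 fell, with a median of 0.05. The shares called were 35.1% and 21.1%, against 16.4% over all genes. The complex I gene Ndufb7 stood at 196, 259 and 209 CPM in fl/fl and at 474, 404 and 329 CPM in Pt-CrAT (0.86, SE 0.16). The ATP synthase gene Atp5k stood at 1043, 2245 and 2498 CPM against 4103, 3584 and 2739 CPM (0.85, SE 0.24, adjusted p = 0.0236). Atp5k was low in Wt12MLFD326 alone, and CrAT12MLFD345 lay close to Wt12MLFD368. It did not pass without Wt12MLFD326 (adjusted p = 0.124), CrAT12MLFD328 (0.138) or CrAT12MLFD337 (0.0844), and Ndufb7 did not pass without CrAT12MLFD328 (0.0512).

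Of 74 mitochondrial ribosome genes, 10 rose and 8 fell (24.3% called, against 16.4% over all genes), with a median of 0.12, such as Mrpl28 (0.70, SE 0.17) and Mrpl3 (-0.91, SE 0.19). Mrpl3 stood at 49.2, 32.9 and 39.3 CPM against 17.0, 22.1 and 25.0 CPM and kept its call without Wt12MLFD326 (adjusted p = 0.0405) but not without CrAT12MLFD328 (0.0671); Mrpl28 lost its call without either (0.0777 and 0.10) and without CrAT12MLFD337 (0.0525). Of 28 genes of mitochondrial protein import, 2 rose and 4 fell; Tomm40, the channel of the outer membrane, fell by 1.12 (SE 0.30), with 27.2 CPM in Wt12MLFD326, 13.4 CPM and 20.3 CPM in the remaining controls, and 6.12 to 14.2 CPM in Pt-CrAT, so that the groups overlapped. Tomm40 did not pass without Wt12MLFD326 (adjusted p = 0.127), CrAT12MLFD328 (0.129) or CrAT12MLFD337 (0.0995). Timm13 was the 1 import gene called in all 6 fits. The 8 mitochondrially encoded transcripts gave 0 calls in edgeR, with 2 lower at an unadjusted p under 0.05, 2 lower in DESeq2 and 1 lower in limma voom.

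Proteasome and antioxidant genes also split. Of 38 proteasome subunits, 7 rose and 6 fell (34.2% called, against 16.4% over all genes), with a median of -0.16. The base ATPase Psmc5 stood at 43.8, 115 and 103 CPM in fl/fl and at 247, 211 and 146.1 CPM in Pt-CrAT (1.20, SE 0.27), while the core subunit Psma5 stood at 64.7, 13.5 and 17.2 CPM against 5.57, 4.11 and 12.1 CPM (-2.07, SE 0.56). Psma5 was far highest in Wt12MLFD326, and without that library it stood at -1.01 (adjusted p = 0.258). Of 36 glutathione and antioxidant genes, 3 rose and 3 fell, and this share of 16.7% is that of all genes tested. The mitochondrial peroxidase Prdx3 stood at 110, 36.1 and 44.9 CPM against 16.8, 16.7 and 31.3 CPM (-1.54, SE 0.43), and the mitochondrial dismutase Sod2 at 631, 313 and 277 CPM against 161, 158 and 263 CPM (-1.07, SE 0.30). Both were highest in Wt12MLFD326, and neither passed without it (adjusted p = 0.232 and 0.218). Psma5, Prdx3 and Sod2 also missed the threshold without CrAT12MLFD328 (0.124 to 0.14) or CrAT12MLFD337 (0.106 to 0.115), and Psmc5 without CrAT12MLFD328 (0.0795).

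Among genes that supply and burn acetyl-CoA, more were called lower than higher. The list of citric acid cycle and pyruvate use genes held 32 tested members, of which 7 fell and 1 rose (median -0.23). The list for the breakdown of branched-chain amino acids held 21, of which 8 fell and 2 rose (median -0.45), against 7.95% lower over all genes tested. No gene of these lists was called by edgeR without CrAT12MLFD328, without CrAT12MLFD337 or without Wt12MLFD326; in the last fit 3 and 3 were higher and 7 and 6 lower at an unadjusted p under 0.05.

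Fatty acid oxidation was mixed, with 4 of 21 genes higher and 6 lower (47.6% called, against 16.4% over all genes tested). Acads, the short-chain acyl-CoA dehydrogenase, stood at 530, 747 and 809 CPM in fl/fl and at 1796, 1474.5 and 1210.1 CPM in Pt-CrAT (1.10, SE 0.23, adjusted p = 0.00724). The electron transfer flavoprotein subunits parted, with Etfb at 0.87 (SE 0.20) and Etfa at -1.72 (SE 0.43). Etfa stood at 110 CPM in Wt12MLFD326 but at 25.1 and 28.3 CPM in the remaining controls, against 12.1 to 24.8 CPM in Pt-CrAT. Of 10 carnitine shuttle genes tested, Crat included, 1 was called (10%). This was the brain-type palmitoyltransferase Cpt1c (1.32, SE 0.35), at 0.640 to 2.04 CPM in the controls against 2.39 to 5.34 CPM in Pt-CrAT. Without CrAT12MLFD328 none of the 4 passed (adjusted p = 0.0606 to 0.109); without Wt12MLFD326 Acads alone did, and without CrAT12MLFD337 Acads and Etfb did. Etfa stood at -0.68 without Wt12MLFD326 (adjusted p = 0.184). Cpt1a, the liver-type rate-setting step, did not pass (-0.19, SE 0.18, adjusted p = 0.482).

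**Figure D3:**
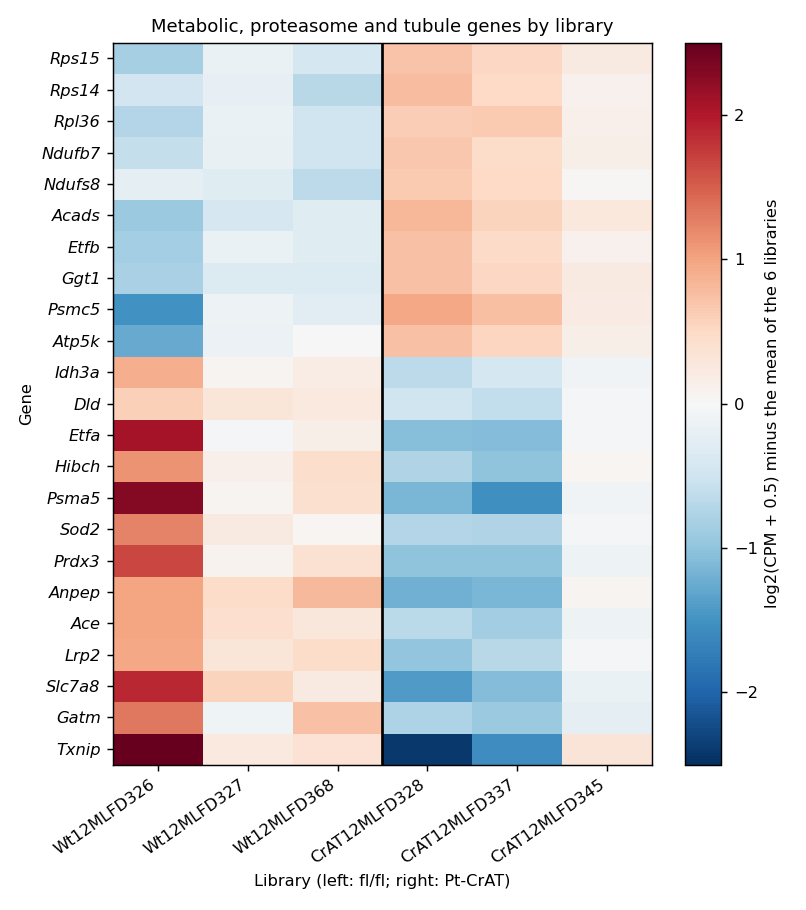
Deviation of 23 genes of ribosome, mitochondria, proteasome and tubule from their mean over the 6 libraries, as log2(CPM + 0.5), with 1 column per library and fl/fl to the left of the black line; the genes were picked after their values were seen. Wt12MLFD326 is the most extreme fl/fl column for most genes, and CrAT12MLFD345 is the palest of the 6.

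Among proximal tubular genes, transport and brush-border members were called in both directions. Of 20 markers of the first proximal segments, 0 rose and 5 fell in edgeR and DESeq2, with 0 higher and 7 lower at an unadjusted p under 0.05, against 7.95% of all genes called lower. The median of the list was 0.01, 11 of its 20 members had higher values in Pt-CrAT, and its summed level overlapped, at 56901 to 76981 CPM in the controls against 69443 to 81622 CPM in Pt-CrAT. The endocytic receptor megalin, Lrp2, stood at 2534, 1603 and 1802 CPM in fl/fl and at 655, 810 and 1258 CPM in Pt-CrAT (-1.12, SE 0.28, adjusted p = 0.0155). Of 16 genes of the renin-angiotensin system and brush-border peptidases, 3 fell, among them aminopeptidase N, Anpep, at 59.6, 40.7 and 52.7 CPM against 12.7, 13.1 and 31.2 CPM (-1.40, SE 0.36). Its groups did not overlap, and without Wt12MLFD326 it stood at -1.26 (adjusted p = 0.0946). Lrp2 stood at -0.91 without that library (adjusted p = 0.0994). Neither passed without CrAT12MLFD328 (0.12 and 0.121) or CrAT12MLFD337 (0.0827 and 0.0958). The brush-border transpeptidase Ggt1, whose gene family gave the promoter of the Cre, rose, at 2070.4, 2869 and 2877 CPM against 5984, 5208 and 4249 CPM (0.98, SE 0.22). It missed the threshold without Wt12MLFD326 (adjusted p = 0.0545) or CrAT12MLFD328 (0.0747).

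Distal segments also held calls. Of 20 genes of the distal convoluted and connecting tubule, 2 rose and 3 fell (25.0% called), and of 24 collecting duct genes, 0 rose and 2 fell (8.33%), against 16.4% over all genes. Hsd11b2, which shields the mineralocorticoid receptor from glucocorticoids, stood at 110, 83.3 and 99.7 CPM in fl/fl and at 46.9, 52.4 and 61.4 CPM in Pt-CrAT (-0.86, SE 0.16, adjusted p = 0.00551). No value of Pt-CrAT reached any of fl/fl, and it kept its call without Wt12MLFD326 (adjusted p = 0.0253) but not without CrAT12MLFD328 (0.0565). Of 14 thick ascending limb genes, 0 rose and 3 fell (21.4% called), such as the potassium channel Kcnj1 (-0.85, SE 0.28), with 0 higher and 3 lower in DESeq2 and at an unadjusted p under 0.05. Of 18 podocyte genes, 1 rose and 3 fell, and of 21 endothelial genes, 1 fell, the junction cadherin Cdh5 (-1.28, SE 0.30). Cdh5 did not pass without Wt12MLFD326 (adjusted p = 0.114) or CrAT12MLFD328 (0.0945), and Kcnj1 did not without Wt12MLFD326 (0.265), Wt12MLFD327 (0.0509), CrAT12MLFD328 (0.206) or CrAT12MLFD337 (0.155).

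Calls among matrix, injury and stress genes went both ways. Of 41 fibrosis and matrix genes, 2 rose and 6 fell (19.5% called, against 16.4% over all genes; median -0.08), with the collagen gene Col6a3 at 52.7, 26.8 and 30.3 CPM in fl/fl and at 8.49, 11.7 and 22.3 CPM in Pt-CrAT (-1.33, SE 0.35). Of 28 tubular injury genes, 1 rose and 1 fell (7.14%), namely Prom1 (0.84, SE 0.27) and osteopontin, Spp1 (-0.74, SE 0.22). The injury marker Havcr1 stood at 1.14 to 2.24 CPM in fl/fl and at 0.457 to 1.15 CPM in Pt-CrAT and did not pass (adjusted p = 0.279). Of 23 integrated stress response genes, 26.1% were called: 2 rose, including Ddit3, and 4 fell, including the phosphatase subunit Ppp1r15a (-1.66, SE 0.47). The small GTPase gene Rhob, counted with the immediate early genes, stood at 23.0, 29.3 and 42.0 CPM against 13.2, 16.5 and 18.6 CPM (-0.96, SE 0.21) and kept its call without Wt12MLFD326 but not without CrAT12MLFD328 (adjusted p = 0.0773). Col6a3, Prom1, Spp1 and Ppp1r15a missed the threshold without Wt12MLFD326 (0.115 to 0.23), CrAT12MLFD328 (0.127 to 0.175) or CrAT12MLFD337 (0.0651 to 0.124); so did Spp1 without Wt12MLFD368 (0.0913) and Prom1 without Wt12MLFD327 (0.0683). Circadian genes gave 0 calls of 21 in edgeR, with 0 higher and 2 lower at an unadjusted p under 0.05, 2 lower in DESeq2, and 1 higher and 2 lower in limma voom; the clock output gene Dbp stood at -1.01 (SE 0.40, adjusted p = 0.0845).

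**Figure D4:**
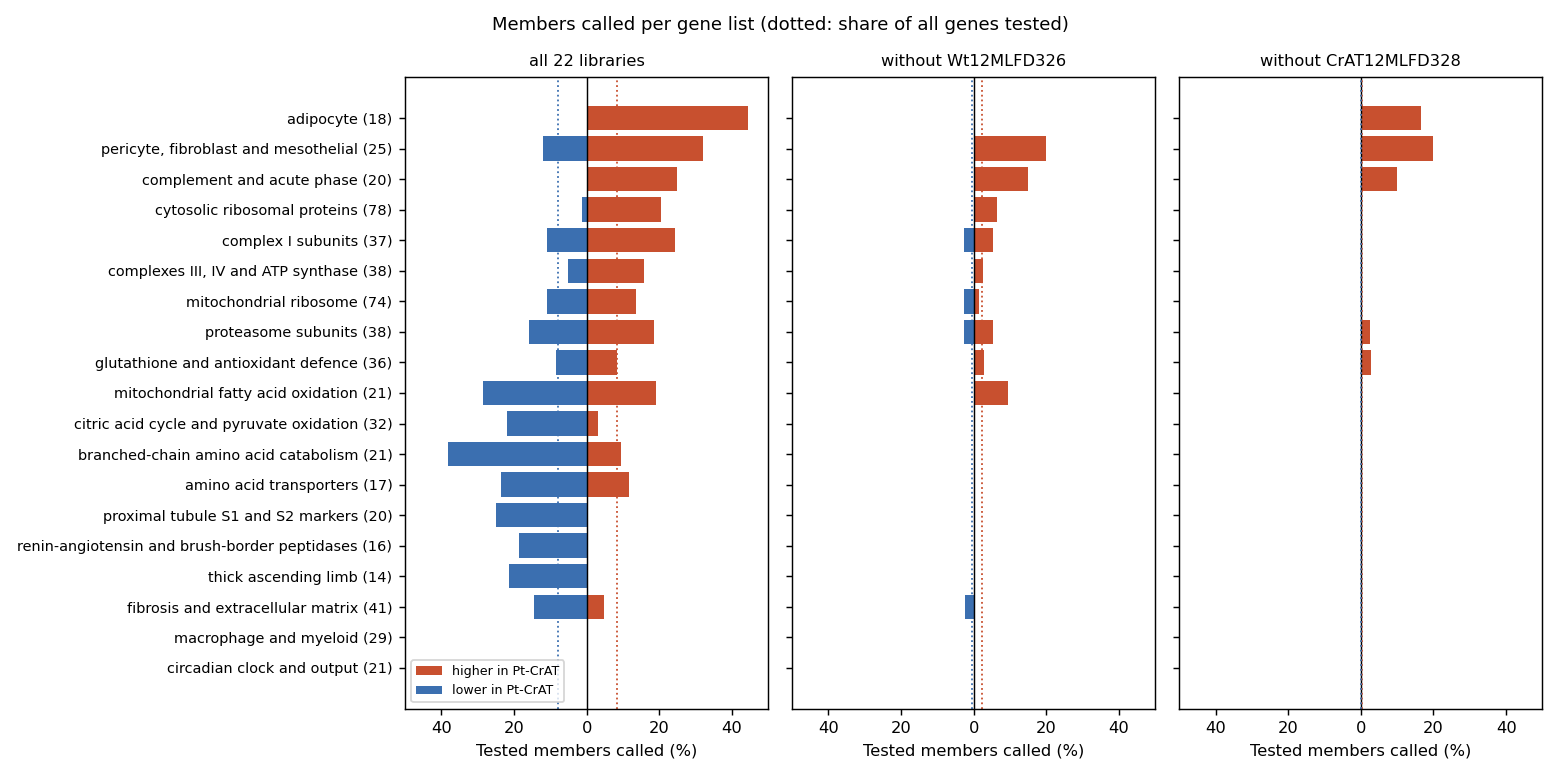
Share of tested members called higher (right, red) and lower (left, blue) for 19 gene lists with their sizes, using all libraries, without Wt12MLFD326 and without CrAT12MLFD328; dotted lines mark the share over all genes tested. Bars for the metabolic and tubular lists shrink or vanish in the middle and right panels. In the middle panel short bars remain for ribosomal, complex I, fatty acid oxidation and proteasome genes, among others, and the adipocyte bar vanishes. In the right panel a bar for adipocyte genes remains. Bars for stromal, complement and acute-phase, proteasome and antioxidant genes called higher remain in both.

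Of the 54 lists, 7 held a gene called in all 6 fits, 33 had members called in both directions, 5 only higher and 10 only lower, and 6 none. Without CrAT12MLFD328, 45 lists had no member called and 0 lists had a member called lower, when over all genes 1577 were lower at an unadjusted p under 0.05 by edgeR. Without Wt12MLFD326, 33 lists had none.

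Fold changes also followed the GC content of the transcript end, taken as the last 500 bases. The median log2 fold change rose from -0.22 in the lowest of 10 equal bins of genes (21.9% to 36.6% GC) to 0.27 in the highest bin (55.7% to 73.7% GC). In the lowest bin 5.77% of genes were called higher and 13.1% lower, and in the highest 15.9% and 3.52%. Across 15035 genes, which are not independent, Spearman's correlation was 0.249; it was 0.149 without Wt12MLFD326 and 0.262 without CrAT12MLFD328. Genes called higher had a median GC content of 49.8%, those called lower 43.0%, and the 47 genes 48.6%, against 46.2% over all genes.

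The libraries differed in this respect by group. The median deviation of the highest minus the lowest bin was -0.45 in Wt12MLFD326, 0.22 in Wt12MLFD327 and 0.18 in Wt12MLFD368, and 0.57, 0.62 and 0.30 in the Pt-CrAT libraries, while the other 16 libraries lay between -0.38 and 0.12. A correction removed the trend of each library with GC content. The bins then had medians of -0.0012 to 0.036, which follows from how the correction works. The correction left 2272 calls (15.1% of genes tested, with 1184 higher and 1088 lower), of which 1852 were shared with the 2464. All 47 genes were called after the correction, among them Cep290, whose transcript end is 28.1% GC, at 1.52, and Timm13, with 58.5% GC, at 0.94. Ribosomal protein genes, with a median GC content of 50.4%, went from 16 higher and 1 lower to 9 and 2, and the citric acid cycle list from 1 and 7 to 0 and 5.

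**Figure D5:**
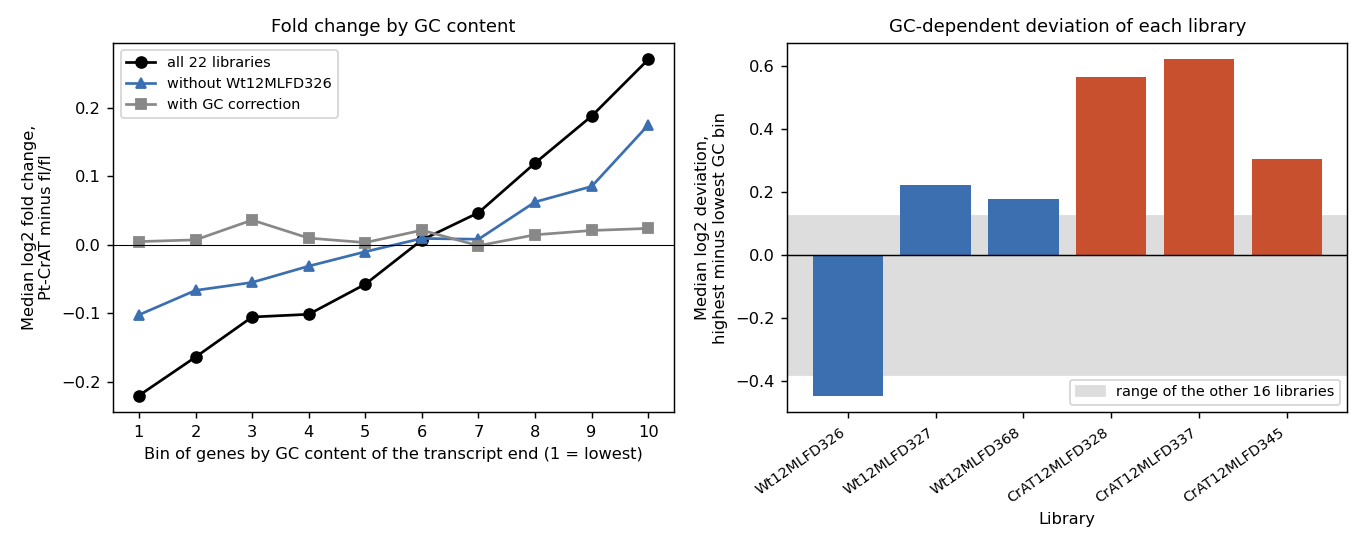
Left, median log2 fold change in each of 10 bins of genes by GC content of the transcript end, with all libraries, without Wt12MLFD326 and after GC correction. Right, median log2 deviation of the highest minus the lowest bin in each 12-month library, with the grey band spanning the other 16 libraries from -0.38 to 0.12; the fl/fl and Pt-CrAT bars do not overlap.

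The genotype difference at 12 months was tested against that at 24 months, where age and the diet word in the titles change together and cannot be told apart. The difference of differences passed for 2562 of 15064 genes (17.0%), with 1305 more positive and 1257 more negative at 12 months. It reuses the 12-month libraries and is therefore not independent of the 12-month calls. Timm13 gave the smallest p: the difference was 1.61 (SE 0.23, adjusted p = 0.00525), and Timm13 stood at 24 months at 301 ± 46.1 CPM in the controls against 232 ± 23.6 CPM in Pt-CrAT (SD, n = 5 each). C3 stood at 26.0 ± 2.52 and 36.7 ± 11.2 CPM at 24 months (SD, n = 5 each), with a difference of 1.12 (SE 0.30, adjusted p = 0.0209). At 24 months fl/fl libraries thus already held C3 near the 12-month Pt-CrAT level. Ngef gave a difference of -0.98 (adjusted p = 0.0059), and Crat one of 0.71 (SE 0.35, adjusted p = 0.149), which did not pass. The difference passed for 623 genes without Wt12MLFD326, for 166 in the positive and 39 in the negative direction without CrAT12MLFD328, and for 5 without both.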

How the data were processed

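The labels' protocols name TRIzol for extraction and Lexogen's QuantSeq 3′ FWD kit for the libraries, which reads each transcript near its 3′ end. Per the submitters' processing notes the genome build was GRCm38 and the tools included R 3.4.3 and DESeq2 1.18.1; for aligner, counter, strand setting and annotation the entry is: not given in the sources used here. Overlapping and antisense genes therefore cannot be separated. The authors deposited whole-number read counts for 16556 genes, each with a total of at least 66 over the 22 libraries, and a signal in which counts are divided by size factors, used only as a check.

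From the counts, edgeR 4.0.16 (R 4.3.3) with TMM scaling, filterByExpr (15064 genes) and the robust quasi-likelihood F test was fitted to all 22 libraries in 6 groups (16 residual degrees of freedom; biological coefficient of variation 20.5%), with Benjamini-Hochberg adjustment at 0.05. The 2 contrasts were the genotype difference at 12 months and its difference from that at 24 months. Alternatives used DESeq2 1.42.0, limma 3.58.1 (voom with sample weights), other scalings and filters, each library left out, CrAT12MLFD345 thinned, the 6 libraries alone, and a loess correction (span 0.3) for GC content of the last 500 bases in GENCODE M21, where 16514 genes matched. Counting error matters for genes with few reads, whose read totals are given in the text, and the reads carried no molecular identifiers, so PCR copies count as reads.

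Members and the 54 gene lists were chosen with earlier results of these data known. Genes eligible for naming were up to 12 per direction called in all 6 leave-one-out fits (mean at least 1 CPM), up to 12 per direction called without overlap (at least 5 CPM), up to 4 called members per list (up to 3 of the highest where none was called), a fixed set, and the 6 with the smallest p against 24 months; further genes are marked in the text. Umod, Dcn, Lrg1, Cnot3, Cd163, Cilp and Dpt were also named after their values were seen. A few eligible genes are left out of the text. On simulated counts (14930 genes) the test recovered 12%, 76%, 90% and 98% of genes changed 1.5-, 2-, 3- and 4-fold at 12 months, with 4 false calls of 142. The simulation gave all libraries the same spread per gene, with no library set apart and no GC shift between the 12-month groups. It changed only genes of at least 5 CPM. It therefore cannot tell how many of the real 12-month calls are false.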

Additional observations from a re-analysis of the deposited data

Results flagged for a closer look

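The genotype difference at 12 months departed from that at 24 months, by the edgeR interaction test, for 2562 genes. That test reuses the 6 libraries of 12 months. The genes below were picked by their 12-month calls or by this test itself. Large values with the sign of the 12-month difference therefore partly follow from the choice. For low-expressed genes the log2 difference, 12 months minus 24 months, was 4.70 for Myoc, 5.10 for Apol6, 4.59 for Nnat, 3.56 for Clec3b, 3.36 for Timp4, 3.13 for Cpxm2, 2.04 for Apod and 1.56 for Meg3. Retnla, with 2 fl/fl reads at 12 months, gave 5.26, a value that depends on the prior count. The acute-phase genes gave 3.34 for Hp and 1.12 for C3. Among well expressed genes the differences were 1.61 for Timm13, 1.73 for Acads, 1.48 for Smim1, 1.49 for Uap1l1, 1.40 for Gmppb and 1.27 for Afg3l1, and -0.98 for Ngef. These settings differ in age, in the diet word and possibly in handling, which cannot be told apart. Crat stood at 28.4 CPM in 1 Pt-CrAT library at 24 months, apart from the other 4 of its group (mean of the group 36.2 CPM, SD 4.41). The library was picked out after its value was seen, and how often chance sets a library so far apart was not tested.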

How the results depend on the processing

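The 2464 calls at 12 months ranged from 53 to 3513 with 1 library left out; they fell to 408 without Wt12MLFD326, to 53 without CrAT12MLFD328 and to 391 without CrAT12MLFD337. They numbered 19 without Wt12MLFD326 and CrAT12MLFD328 together, 1 with only the 6 libraries fitted, and 3855 in limma voom with sample weights, which gave Wt12MLFD326 a weight of 0.19. The difference from 24 months passed for 17.0% of genes; this share ranged from 1.33% to 23.6% with 1 library left out and was 0.0325% (5 genes) without Wt12MLFD326 and CrAT12MLFD328. All 2464 calls kept their sign in every fit of the 22 libraries or a subset of them that tested the gene. The groups did not overlap for 1173 genes called higher and 929 called lower. For these, leaving out a library could hardly reverse the sign, so the kept sign is no measure of stability. Of the 69 named genes called, 44 kept their call without Wt12MLFD326, 33 without CrAT12MLFD328 and 49 without CrAT12MLFD337. The GC correction ended the calls of C4b, Lrg1, Kcnj1 and Spp1. DESeq2 called 42 of the 47 genes and gave no adjusted p for the other 5. Leaving out CrAT12MLFD328 leaves the Pt-CrAT arm with 2 libraries, and why the calls depend on it was not tested. No paired analysis was possible because the replicate numbers are not shared between groups.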
